A study of Mus musculus with 2 samples.

Results

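The mononuclear phagocytes of injured mouse kidney, that is monocytes, macrophages and dendritic cells, made up 57 of the 3261 cells kept from the 2 single-cell libraries of the study. They were chosen by their own counts. A barcode was kept with at least 500 detected genes and at most 50% of its unique molecular identifiers (UMIs, 1 per captured RNA molecule) from mitochondrial genes. A kept cell counted as a phagocyte when Lyz2, C1qa, C1qb, C1qc and Csf1r summed to 10 or more per 10000 non-mitochondrial UMIs. It also had to hold S100a8 plus S100a9 under 20 (neutrophils), Hbb-bs under 20 (red cells), Cd3e plus Cd3g under 2 (T cells) and Slc34a1 plus Lrp2 under 25 (proximal tubule). The values of these 12 genes chose the cells, so they are given below as a description.

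The kidneys came from 9-week-old female C57Bl/6 mice of the genotype Pax8.rtTA;TetO.Cre;R26.FUCCI2aR. Pax8 is a promoter of tubule epithelium, so the Cre and the FUCCI2aR cell-cycle reporter it switches on are aimed at tubule cells and not at phagocytes. All animals had rhabdomyolysis, muscle breakdown that loads the kidney with myoglobin, and were given vehicle in 1 library and in the other CA3, a compound described as inhibiting the transcriptional coactivator YAP1. Both groups therefore carry the transgenes and the injury, and neither is an uninjured control. How many animals went into a library, at what dose and how long after injury, is not stated by the labels. The series is described as a search for pathways in the response to acute kidney injury.

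The vehicle library held 1967 barcodes, of which 1767 were kept, and 27 of these met the rule. The CA3 library held 1724 barcodes, 1494 kept cells and 30 phagocytes. The phagocytes gave 240961 non-mitochondrial UMIs in vehicle and 311545 in CA3, with a median of 7577 UMIs per cell (range 3860 to 36160) and 8230.5 (range 3744 to 44883). Their median mitochondrial share was 4.77% and 4.46%, against 17.5% and 17.7% over all kept cells. The libraries shared 1 cell barcode, and no phagocyte had it. With 1 library per group no test of CA3 against vehicle was possible. All 95% intervals below cover counting error only, and cells of 1 library are not replicates. A value in CPM is a gene's UMIs summed over the named cells per 1000000 of their non-mitochondrial UMIs. A gene was measured when it had 30 or more UMIs over both libraries, and a ratio past 2 times in either direction was counted as a difference of size, not as a test.

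Mononuclear phagocytes clear dying cells, casts and free haem in the injured kidney and present antigen to T cells. Blood monocytes enter the organ in a classical form, marked in mouse by Ly6c2 and Ccr2, and patrol its vessels in a nonclassical form that depends on Nr4a1. Resident kidney macrophages are known for making C1q, the recognition molecule of the classical complement pathway, which is assembled from the products of C1qa, C1qb and C1qc and also tags apoptotic cells for uptake.

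The C1q genes lie next to each other on the minus strand of mouse chromosome 4. In mm10 with the GENCODE vM21 annotation, C1qb spans chr4:136880129-136886187, C1qc chr4:136889804-136893065 and C1qa chr4:136895917-136898803. The promoters of C1qb and C1qc are shown because the counts of these genes split the phagocytes into the classes compared below. Each runs from 250 bases before to 50 bases after the start, 5′ to 3′ on the minus strand, from RefSeq with GRCm38.p6 (C1qb chr4:136886151-136886450, C1qc chr4:136892865-136893164). Capitals mark GAGGAA, the core bound by the myeloid factor PU.1, or its reverse complement TTCCTC.
C1qb: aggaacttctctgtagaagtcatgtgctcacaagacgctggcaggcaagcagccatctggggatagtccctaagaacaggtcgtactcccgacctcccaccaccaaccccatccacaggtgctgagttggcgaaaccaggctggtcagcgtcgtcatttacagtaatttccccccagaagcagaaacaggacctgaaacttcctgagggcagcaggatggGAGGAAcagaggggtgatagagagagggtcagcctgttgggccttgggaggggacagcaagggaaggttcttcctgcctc
C1qc: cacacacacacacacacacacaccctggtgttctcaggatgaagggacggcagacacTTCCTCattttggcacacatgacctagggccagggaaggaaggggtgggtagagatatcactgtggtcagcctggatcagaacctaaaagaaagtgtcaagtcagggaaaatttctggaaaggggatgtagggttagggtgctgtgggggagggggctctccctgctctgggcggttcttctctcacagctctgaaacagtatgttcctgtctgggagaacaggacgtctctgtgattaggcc
Either strand of GAGGAA was present in 28.3% of 32851 promoters of this length, so a match is common. The MAF half-site TGCTGAC (4.67% of promoters), the C/EBP motif TTGCNNAA (10.8%) and a motif of interferon regulatory factors (3.44%) were searched on both strands and have no match in either window. These matches describe letters and no binding was measured.

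The level that chose the phagocytes was far from its limit for most of them. The summed level of Lyz2, C1qa, C1qb, C1qc and Csf1r had a median of 165 per 10000 in vehicle and 191 in CA3. The lowest cell inside the limit of 10 stood at 10.4 and 11.3, and the highest cell outside it at 7.99 and 7.38. Of 35 vehicle and 36 CA3 cells past that level, the proximal tubule limit removed 8 and 2, the neutrophil limit 0 and 3 and the red cell limit 0 and 1. The T cell limit removed none. Lyz2, the macrophage lysozyme, had UMIs in all 27 vehicle cells and 28 of 30 CA3 cells, at 16281 and 19471 CPM, although 34.1% of its 3′ end is shared with Lyz1 and its count is uncertain to that extent. Csf1r, the receptor for the growth factor CSF1, had UMIs in 25 and 29 cells, at 577 and 677 CPM.

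Cd74, the invariant chain of MHC class II, is a phagocyte marker that the rule did not use, and the label was checked against it. Per 10000 UMIs, Cd74 ranged in vehicle from 0 through a median of 195 to 480, and in CA3 from 0 through 196 to 583. It had UMIs in 24 of 27 and 27 of 30 phagocytes. With each cell thinned to 2000 UMIs, 23 of 27 vehicle and 23 of 30 CA3 phagocytes held a Cd74 UMI. The same share was 6.04% of 1358 and 10.9% of 1101 proximal tubule cells (Slc34a1 plus Lrp2 at 25 or more). Their median depth was 7320.5 and 8075 UMIs. Proximal tubule cells, here and below, also had summed Lyz2, C1qa, C1qb, C1qc and Csf1r under the limit that a phagocyte had to reach. The 8 vehicle and 2 CA3 cells past both that level and the proximal tubule limit were therefore not among them. The shares of phagocytes thus stood well above those of proximal tubule cells. The source of the UMIs in proximal tubule cells was not tested. Fcer1g and Tyrobp, signalling adaptors of myeloid receptors and also outside the rule, had UMIs in 26 of 27 vehicle and 29 of 30 CA3 cells each.

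Some cells went against the label, and they were not alike in the libraries. Cells are numbered here by falling C1q level within each library. A marker list of another lineage summed to 50 or more per 10000 in 2 vehicle and 5 CA3 cells, which left 25 and 25. Vehicle cell 12 held all 8 endothelial markers at 82.1 per 10000, with Lyz2 at 6.31. Vehicle cell 16 held 9 of 10 proximal tubule markers at 1003.5 per 10000, with Lyz2 at 10.4 and no Cd74 or C1q. CA3 cells 16 and 17 held all 5 markers of the thick ascending limb, the salt-reabsorbing segment that makes uromodulin, at 449 and 487 per 10000. Both had Lyz2 at 0 yet 15 and 12 of the 16 resident macrophage markers, with mitochondrial shares of 17.6% and 41.3%. These 16 markers include C1qa, C1qb and C1qc, which are part of the rule. CA3 cell 4 held proximal tubule markers at 158 per 10000, and CA3 cells 19 and 30 held 6 and 5 of 6 B cell markers at 186 and 97.4. The doublet caller Scrublet marked none of the 57 cells. For the named genes that rest on these 7 cells, the values without them are given beside the result or at the end of its comparison.

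**Figure D1:**
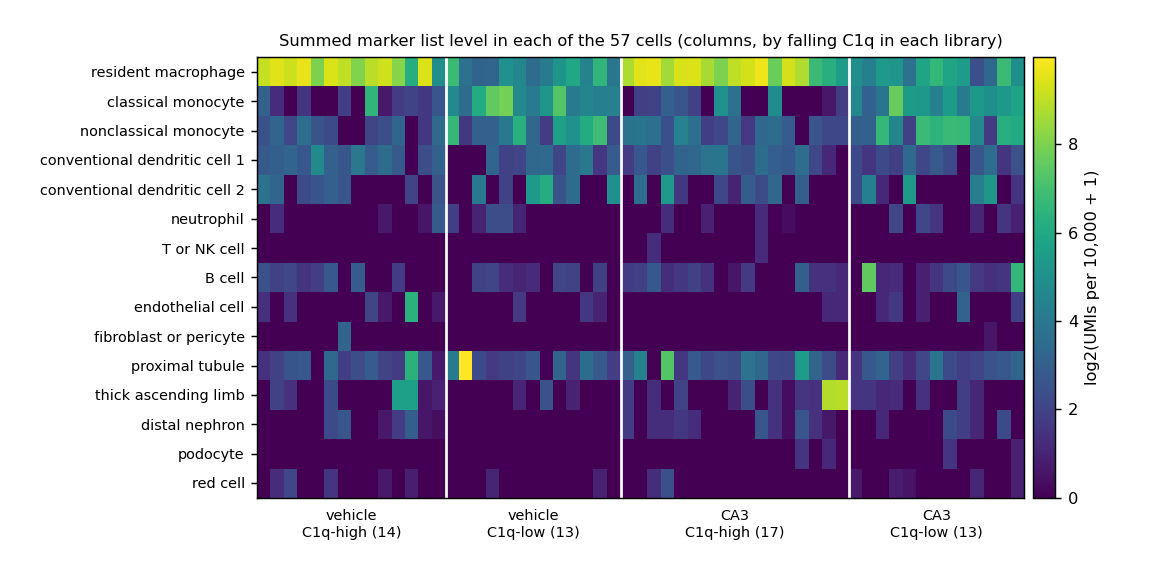
Summed marker lists of phagocyte types and other lineages (rows, colour as log2 of UMIs per 10000 plus 1) in each of the 27 vehicle and 30 CA3 phagocytes (columns, by falling C1q, with white lines between the C1q-high and C1q-low cells). The columns with bright thick ascending limb rows are CA3 cells 16 and 17, and the brightest proximal tubule entry is vehicle cell 16.

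Over the 27 vehicle and 30 CA3 cells, the summed markers of T or NK cells came to 0 and 2 UMIs, of basophils or mast cells to 2 and 0, of fibroblasts or pericytes to 3 and 1 and of red cells to 8 and 9. Those of neutrophils came to 33 and 17 UMIs, with 6 of 10 markers at 0 in each library. Endothelial markers came to 114 UMIs in vehicle and 14 in CA3, proximal tubule markers to 671 and 262, thick ascending limb markers to 117 and 1234 and B cell markers to 34 and 245. The lists that differ most between the libraries are thus those of the 7 cells named above.

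The phagocytes took 1.53% of kept cells in vehicle (Clopper-Pearson 95% interval 1.01 to 2.22) and 2.01% in CA3 (1.36 to 2.85). The ratio was 1.31 (0.755 to 2.30), an interval that spans 1, so a difference in abundance was not detectable with 57 cells. A share of a suspension also moves with every other cell type in it.

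C1q separated the phagocytes into 2 ranges with few cells between them. Cells with C1qa, C1qb and C1qc at 10 or more per 10000 are called C1q-high, which is a range of a score and not a type. They were 14 of 27 in vehicle (51.9%, 31.9 to 71.3) and 17 of 30 in CA3 (56.7%, 37.4 to 74.5), with a ratio of 1.09 (0.507 to 2.39). C1q-high cells had a median of 132 per 10000 in vehicle (10.8 to 237) and 140 in CA3 (16 to 204). All 13 C1q-low cells of vehicle and 11 of 13 in CA3 had no C1q UMI, and the other 2 stood at 3.76 and 4.19. Within 2 times of the limit lay 2 vehicle cells and 1 CA3 cell. The classes had similar depth, with median UMIs of 6521.5 (high) and 7714 (low) in vehicle and of 7893 and 9595 in CA3. In C1q-high cells C1qa stood at 2302 CPM in vehicle and 4146 in CA3, C1qb at 3052 and 4729 and C1qc at 2155 and 2607. After thinning to 2000 UMIs, 0 of 1358 vehicle and 6 of 1101 CA3 proximal tubule cells (0.545%) held a C1qa UMI, against 13 of 14 and 17 of 17 C1q-high cells. C1qa helped to choose both of these groups, so the shares describe that choice and are no check of it.

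**Figure D2:**
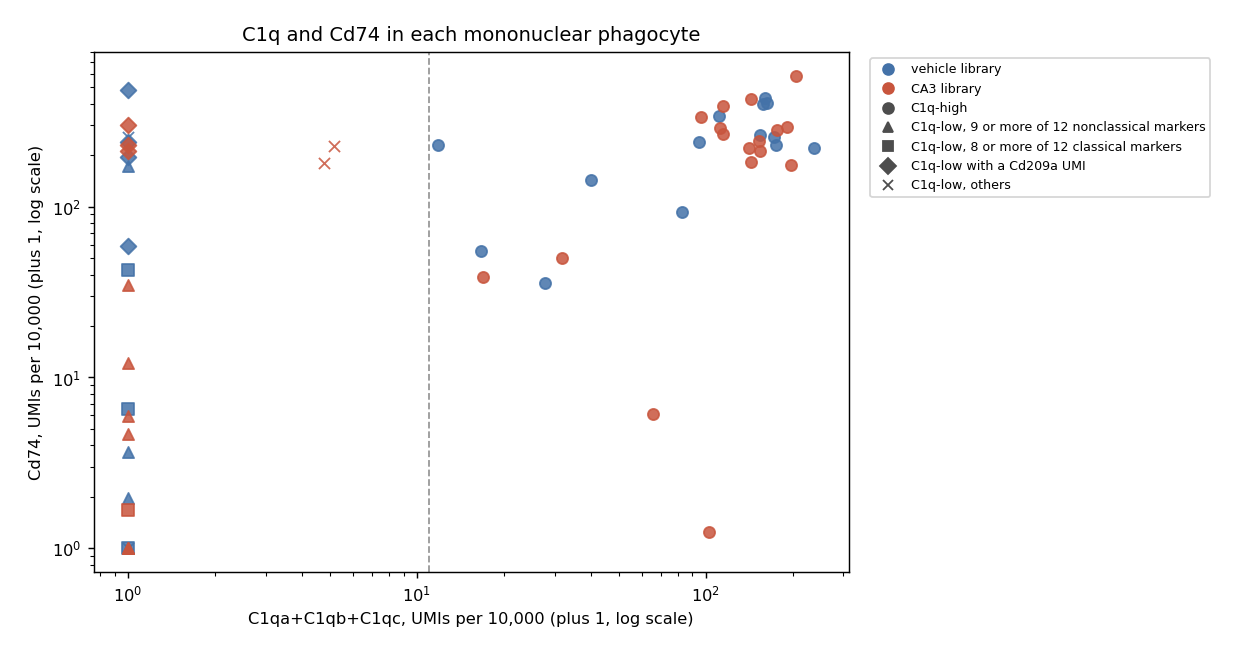
C1q (C1qa, C1qb and C1qc summed, x axis) against Cd74 (y axis), both as UMIs per 10000 plus 1 on log axes, for each of the 57 phagocytes, with colour for the library and shape for C1q-high cells and subgroups of C1q-low cells. C1q-high cells lie to the right of the dashed limit at 10, and C1q-low cells spread over the whole height from no Cd74 to 480.

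The C1q-high and C1q-low phagocytes differed in many genes that did not choose them. Of 2900 measured genes outside the rule, 173 (5.97%) were at least 2 times higher and 201 (6.93%) at least 2 times lower in C1q-high cells of both libraries, 12.9% in either direction. The direction in the libraries was largely shared. Of 391 genes past 2 times higher in vehicle and 391 in CA3, 173 were past it in both (44.2% of each). Of 514 and 449 lower ones, 201 were (39.1% and 44.8%), while 41 genes passed 2 times in opposite directions. The median gene stood at -0.15 in vehicle and -0.13 in CA3 on the log2 scale of C1q-high over C1q-low, so values near 0 are close to the middle of all genes.

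Resident macrophage genes were higher in the C1q-high class. Outside the C1q genes, 9 of 13 measured members of the resident macrophage list were higher in both libraries and none lower, with a median log2 ratio of 1.79 in vehicle and 2.75 in CA3. Ms4a7, a membrane protein of macrophages, had 68 UMIs in C1q-high and 0 in C1q-low cells of vehicle, which is at least 17.5-fold higher against a floor of 3 UMIs over the class. In CA3 Ms4a7 had 115 and 1 UMIs, a ratio of 91.6 (16.1 to 3649). Apoe, the lipid carrier, stood at 27832 CPM in C1q-high and 1771 in C1q-low cells of vehicle (15.7 times, 13.6 to 18.3) and at 30270 and 1962 in CA3 (15.4 times, 13.7 to 17.5). Apoe UMIs were widespread in this tissue. After thinning, 42.1% and 41.6% of proximal tubule cells held one, and 6 of 13 vehicle and 9 of 13 CA3 C1q-low cells did, and the intervals of these shares (19.2 to 74.9% and 38.6 to 90.9%) include the proximal tubule share.

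Receptors of the same list were higher too. Trem2, a lipid-sensing receptor of macrophages, stood at 588 and 19.0 CPM in vehicle (30.9 times, 8.28 to 259) and at 409 and 29.0 in CA3 (14.1 times, 5.29 to 53.3). C3ar1, the receptor for the complement fragment C3a, had 34 and 2 UMIs in vehicle (13.1 times, 3.37 to 113) and 57 and 1 in CA3 (45.4 times, 7.83 to 1825). Adgre1, which encodes the F4/80 antigen, had 37 and 11 UMIs in vehicle (2.60 times, 1.3 to 5.65, and 1.93 without vehicle cell 2) and 65 and 13 in CA3 (3.98 times, 2.17 to 7.88). Cx3cr1, the fractalkine receptor, stood at 1.16 times (0.672 to 2.03) in vehicle and 4.14 times (2.55 to 7.06) in CA3, of which the CA3 value alone is past 2 times. Pf4, a chemokine found in resident macrophages as well as platelets, had 18 UMIs in C1q-high and 0 in C1q-low cells of vehicle and 24 and 0 in CA3, at least 4.63-fold and 6.37-fold higher.

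Lysosomal enzymes were higher in the C1q-high class. Of 18 measured genes for efferocytosis (the uptake of dying cells) and the lysosome, 7 were higher in both libraries and none lower, with medians of 0.98 and 1.0. Ctsb, a cathepsin protease, stood at 2501 and 714 CPM in vehicle (3.50 times, 2.72 to 4.56) and at 2872 and 970 in CA3 (2.96 times, 2.44 to 3.61). Of the 498 Ctsb UMIs in C1q-high cells of CA3, 295 came from CA3 cell 13, the deepest cell at 44883 UMIs, and without it the ratio was 1.57 (1.25 to 1.96). Lgmn, the protease legumain, had ratios of 3.38 (1.94 to 6.23) and 6.65 (4.01 to 11.7). Ctsd, another cathepsin, had ratios of 22 (12.2 to 44.6) and 15.9 (10.3 to 26.0), but 361 of its 440 UMIs in CA3 came from CA3 cell 13, and the CA3 ratio was 2.86 without that cell.

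Iron storage genes were higher as well. Of 10 measured genes of haem and iron handling, 3 were higher in both libraries and 1 lower. Fth1, the ferritin heavy chain, stood at 16299 and 5733 CPM in vehicle (2.84 times, 2.60 to 3.12) and at 10657 and 4792 in CA3 (2.22 times, 2.03 to 2.43). Ftl1, the light chain, had ratios of 2.49 (2.21 to 2.80) and 3.26 (2.94 to 3.63), with 88.9% of its 3′ end shared with pseudogenes. Both passed 2 times in CA3 through CA3 cell 13, which held 666 of 1848 Fth1 and 1148 of 1818 Ftl1 UMIs of the C1q-high cells. Without that cell the CA3 ratios were 1.85 (1.68 to 2.03) for Fth1 and 1.56 (1.38 to 1.76) for Ftl1. Bach1, a haem-sensing repressor, was the lower one, at 0.343 (0.158 to 0.701) and 0.386 (0.199 to 0.722). The list's medians were 0.17 and 0.36.

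Several chemokines were higher in C1q-high cells, but not all of them in both libraries. Of 15 measured inflammatory genes, 3 were higher in both (Ccl4, Ccl12 and Cxcl16) and 1 lower (Ccl9), with medians of -0.31 in vehicle and 1.03 in CA3. Ccl4, a chemokine that draws in monocytes and T cells, stood at 1677 and 57.1 CPM in vehicle (29.3 times, 13.3 to 80.8) and at 3120 and 94.1 in CA3 (33.2 times, 19.2 to 62.7). Cxcl16, the ligand of CXCR6, had ratios of 4.12 (2.0 to 9.55) and 11.2 (4.91 to 31.3). Ccl12 had no UMI in C1q-low cells of either library, but 124 of its 141 UMIs in CA3 were in CA3 cell 5. Ccl2, the ligand of CCR2, went opposite ways, with 0.249 (0.159 to 0.380) in vehicle and 9.32 (4.89 to 19.9) in CA3. That difference between the libraries was not tested.

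Of 13 measured reparative and profibrotic genes, 6 were higher in C1q-high cells of both libraries and none lower, with medians of 1.16 and 2.41. Stab1, a scavenger receptor, had 12 UMIs in 10 C1q-high cells of vehicle and 39 in 11 of CA3, and 0 in C1q-low cells, at least 3.09-fold and 10.4-fold higher. Igf1, a growth factor, had 10 and 34 UMIs in C1q-high cells and 0 in C1q-low cells, at least 2.57-fold and 9.03-fold higher, and 1.92-fold and 2.41-fold without the top cell. Mmp12, macrophage elastase, had ratios of 11.6 (7.31 to 19.6) and 4.23 (3.03 to 6.03), with 168 of 305 UMIs in vehicle cell 13 and 154 of 265 in CA3 cell 13. The CA3 ratio was 1.70 without CA3 cell 13, and the log2 ratio in vehicle turned to -6.31 with the C1q limit at 20. Fabp5, a fatty acid carrier, rested on the same cells, with 166 of 275 UMIs in vehicle cell 13 and 237 of 251 in CA3 cell 13. Its CA3 ratio was 1.86 without that cell, and its log2 ratio turned to -0.21 in vehicle at that limit.

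Among 18 measured transcription factors, 2 were higher in both libraries and 2 lower. Maf, a factor of macrophage differentiation, had ratios of 7.34 (2.64 to 28.3) and 15.1 (3.91 to 130). Irf8, a factor of monocyte and dendritic cell development, had 2.68 (1.48 to 5.12) and 2.73 (1.48 to 5.36). Cebpb, a factor on which nonclassical monocytes depend, was lower at 0.236 (0.173 to 0.318) and 0.301 (0.241 to 0.373). Immediate early genes, which tissue dissociation is known to induce, were also higher in part. All 20 were measured, 4 were higher in both libraries and Nr4a1 was lower. Among the higher ones were Egr1 at 2.22 (1.60 to 3.14) and 2.72 (1.98 to 3.79) and Hspa1a, a heat shock protein, at 3.98 (2.73 to 5.97) and 3.83 (2.49 to 6.09). Vehicle cell 8 held 103 of the 170 Hspa1a UMIs in C1q-high cells of vehicle, and without it the ratio was 1.63 (1.06 to 2.55). Egr1 stood at 1.95 and 1.94 without the C1q-high cell richest in it. Their part in the differences between the classes was not tested.

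By summed UMIs, MHC class II did not separate the classes by 2 times, although the per-cell medians of Cd74 lay further apart than that. None of 10 measured genes passed it in both libraries in either direction, with medians of 0.71 in vehicle and 0.36 in CA3. Cd74 stood at 18903 CPM in C1q-high and 12838 in C1q-low cells of vehicle (1.47 times, 1.38 to 1.57) and at 17508 and 13031 in CA3 (1.34 times, 1.27 to 1.43). H2-Aa, a class II alpha chain, had 1.60 (1.45 to 1.77) and 1.25 (1.14 to 1.36). Per 10000 UMIs, Cd74 in C1q-low cells ran from 0 through a median of 41.6 to 480 in vehicle and from 0 through 11.2 to 299 in CA3. In C1q-high cells it ran from 34.7 through 233 to 429 in vehicle and from 0.251 through 240 to 583 in CA3, so the classes overlapped over most of their ranges and the C1q-low cells had the lower medians.

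Monocyte genes led the C1q-low class. Of 9 measured classical monocyte markers 8 were lower in C1q-high cells of both libraries and none higher, with medians of -4.07 and -3.95. Of 10 measured nonclassical markers 7 were lower and none higher, with medians of -2.62 and -3.24. Plac8, a small cysteine-rich protein of monocytes, stood at 22.1 CPM in C1q-high and 1695 in C1q-low cells of vehicle (0.0130, 0.00266 to 0.0387). In CA3 Plac8 had 0 of 214 UMIs in C1q-high cells. After thinning, Plac8 UMIs were found in 8 of 13 and 10 of 13 C1q-low cells, against 7.51% and 7.08% of proximal tubule cells. Nr4a1, on which nonclassical monocytes depend, had 13 and 126 UMIs in vehicle (0.0797, 0.0413 to 0.141) and 21 and 148 in CA3 (0.113, 0.0679 to 0.179). Ccr2, the receptor that brings monocytes into tissue, had 25 and 111 UMIs in vehicle (0.174, 0.108 to 0.270) and 61 and 134 in CA3 (0.363, 0.263 to 0.494). In the thinned CA3 cells alone the log2 ratio of Ccr2 was 0.13. Thinning lowers the depth and also gives every cell the same weight. Equal weight per cell at full depth did not turn the direction, and the part of depth was not tested.

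Genes absent from the C1q-high class came from few cells. Hp, haptoglobin, had 0 and 42 UMIs in vehicle, over 8 C1q-low cells, and 0 and 39 in CA3, over 6. Ly6c2 had 0 and 39 UMIs in vehicle and 0 and 41 in CA3, all 41 in CA3 cell 21, and 50.2% of its 3′ end is shared with Ly6c1 and other genes. Chil3, a chitinase-like protein of classical monocytes, had 0 and 131 UMIs and 0 and 89, with 86 of the 89 in CA3 cell 21. Cd209a, a lectin of monocyte-derived dendritic cells, had 0 and 41 UMIs over 4 C1q-low cells of vehicle and 0 and 51 over 3 of CA3.

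Immune receptors and complement genes went both ways. Of 17 measured Fc and pattern receptors 6 were higher in C1q-high cells of both libraries and 2 lower, with medians of 0.39 and 0.15. Cd14, the co-receptor for bacterial lipopolysaccharide, had ratios of 2.82 (1.86 to 4.42) in vehicle and 4.66 (3.09 to 7.30) in CA3, and Fcgr1, the high-affinity receptor for IgG, 2.76 (1.16 to 7.55) and 2.82 (1.42 to 6.11), the vehicle value at 1.97 without vehicle cell 1. Of 7 measured complement genes outside the rule, C3ar1, given above, and Cd93, a receptor named for its link to C1q, were higher. Cfp, which encodes properdin, the stabiliser of the alternative pathway, was lower at 0.331 (0.153 to 0.672) and 0.145 (0.0589 to 0.311).

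Some adhesion and interferon genes were lower in the C1q-high class, but the interferon list as a whole was lower in vehicle only. Of 15 measured chemokine receptors and adhesion genes 5 were lower in both libraries and 2 higher, with medians of -1.12 and -0.96. Itgal, the alpha chain of the integrin LFA-1, stood at 44.1 and 419 CPM in vehicle (0.105, 0.0367 to 0.248) and at 40.4 and 637 in CA3 (0.0634, 0.0248 to 0.136). Itga4 had 0.211 (0.101 to 0.406) and 0.165 (0.0918 to 0.281). Of 11 measured interferon response genes, 3 were lower in both and 1 higher. Their median was -1.32 in vehicle and -0.11 in CA3, where the median of all genes was -0.13. In CA3 alone 3 were past 2 times higher and 3 lower. Ifitm3, an antiviral membrane protein, stood at 978 and 3914 CPM in vehicle (0.25, 0.204 to 0.305) and at 611 and 3316 in CA3 (0.184, 0.148 to 0.228).

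**Figure D3:**
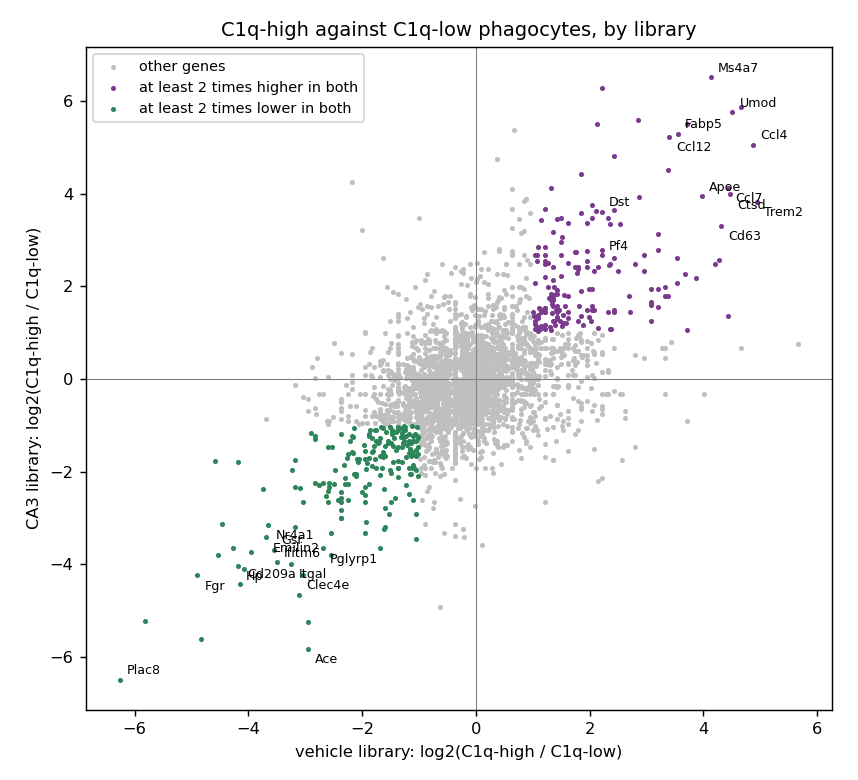
Log2 ratio of C1q-high over C1q-low phagocytes in vehicle (x axis) and CA3 (y axis). Each point is 1 measured gene outside the rule with a ratio in both libraries. Genes past 2 times in both libraries are coloured, and counts of 0 are set to the floor of 3 UMIs. Apoe, Ms4a7, Ccl4 and Trem2 lie to the upper right and Plac8, Cd209a and Nr4a1 to the lower left.

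Without the 7 cells that carry another lineage's markers, 156 genes were higher and 198 lower in C1q-high cells of both libraries. Umod, the thick ascending limb protein uromodulin, was among the higher genes by the naming rule, at 434 and 19.0 CPM in vehicle and 3910 and 72.4 in CA3, and 460 of its 688 CA3 UMIs were in CA3 cell 16. Its ratio of C1q-high over C1q-low cells went from 22.8 to 13.8 in vehicle and from 54.0 to 1.06 in CA3 without the 7 cells. All 4 measured genes of the thick ascending limb list were past 2 times higher in both libraries, with medians of 3.36 and 5.82, above those of the resident macrophage list. CA3 cells 16 and 17, which held most of these UMIs in CA3, are both C1q-high. Dst, a cytoskeletal linker, had 11 of 18 vehicle UMIs in vehicle cell 12 and 17 of 46 CA3 UMIs in CA3 cell 16, with none in C1q-low cells. Dst went from at least 4.63-fold to at least 1.90-fold higher in vehicle and from 12.2-fold to 4.92-fold in CA3 without the 7 cells.

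The C1q-low class was not 1 kind of cell. It was divided by a rule chosen after its values were seen. Cells with 9 or more of 12 nonclassical monocyte markers formed the first subgroup, then cells with a Cd209a UMI, then cells with 8 or more of 12 classical monocyte markers, and then the rest. In vehicle these held 4, 4, 3 and 2 cells, and in CA3 7, 3, 1 and 2. Counts this small carry no comparison of shares. Since the markers made the subgroups, the values that follow describe them. The nonclassical cells had Nr4a1 at 2670 CPM in vehicle and 2085 in CA3, Plac8 at 1175 and 2380, and Ccr2 at 0 and 39.3. Their Cd74 was low in most cells, with medians of 1.82 and 3.68 per 10000 (0 to 171 and 0 to 33.7). The summed level of 5767 CPM in vehicle, against 964 in CA3, came mostly from vehicle cell 20.

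The classical cells had Plac8 at 4684 CPM in vehicle and 4808 in CA3 and Chil3 at 131 and 86 UMIs. Their Cd74 stood at 1313 CPM in vehicle and 67.7, from 1 UMI, in CA3. Cells with Cd209a UMIs were the opposite, with Cd74 at 22969 and 25352 CPM, H2-Aa at 10683 and 12359 CPM and Ccr2 at 1604 and 1921 CPM. Among them vehicle cell 17 also carried 8 of the classical markers. Apoe was low in these cells, at 25.9 and 39.6 CPM, against 4592 and 4386 in the nonclassical cells. Per 10000 UMIs their Cd74 ran from 57.6 to 480 in vehicle and from 211 to 299 in CA3, against at most 41.6 in the classical cells.

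The phagocytes of the 2 libraries were compared next. Of 2906 measured genes 117 (4.03%) were at least 2 times higher and 94 (3.23%) at least 2 times lower in CA3, 7.26% in either direction, with the median gene at -0.01 on the log2 scale. Without the 7 cells the counts were 87 and 81. These are sizes in 1 library each, and differences between animals, runs and treatments cannot be told apart.

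Il1b, the gene for the inflammatory cytokine interleukin-1β on chr2:129364570-129371139, was the member of the inflammatory list with most UMIs among those past 2 times. It had 562 UMIs over 18 of 27 vehicle phagocytes and 276 over 23 of 30 in CA3, at 2332 and 886 CPM. Per 10000 UMIs Il1b ranged in vehicle from 0 through a median of 8.37 to 198, and in CA3 from 0 through 4.87 to 75.3. The CA3 range lay inside that of vehicle. Only vehicle cells 5 and 23, at 198 and 107, stood above the highest CA3 cell. The ratio of CA3 over vehicle was 0.380 (0.328 to 0.439), which is -1.40 on the log2 scale. The cell with most Il1b UMIs held 95 in vehicle (vehicle cell 14) and 87 in CA3 (CA3 cell 7). Without the 7 mixed cells the ratio was 0.349, and 0.266 after leaving out, in each library, the 3 cells richest in Il1b UMIs.

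The share of cells with an Il1b UMI was compared after thinning, since it moves with depth. In thinned cells 8 of 14 and 10 of 17 C1q-high cells held a UMI in vehicle and CA3, and 10 of 13 and 8 of 13 C1q-low cells did, against 0.0736% and 0.363% of proximal tubule cells. In C1q-high cells Il1b stood at 2089 and 1142 CPM (0.547, 0.454 to 0.658, and 0.328 without CA3 cell 7). In C1q-low cells it stood at 2648 and 565 (0.213, 0.164 to 0.275), from 278 and 78 UMIs. By subgroup, Il1b stood at 1104 CPM in 4 nonclassical cells of vehicle and 1455 in 7 of CA3, with 38 of the 74 CA3 UMIs in CA3 cell 30, and all 4 and all 7 cells held a UMI. Per 10000 UMIs the cells ran from 5.31 to 18.2 in vehicle and from 5.31 to 34.6 in CA3, and these ranges overlap. It stood at 5296 in 3 classical cells of vehicle and 67.7 in the 1 of CA3, and at 1423 and 19.8 in the cells with Cd209a, where vehicle cell 21 gave 54 of 55 vehicle UMIs. The other C1q-low cells had 71 UMIs in vehicle, all in vehicle cell 24, and 2 in CA3. Of the 278 Il1b UMIs in C1q-low cells of vehicle, the 3 classical cells thus gave 121, vehicle cell 24 gave 71 and vehicle cell 21 gave 54.

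**Figure D4:**
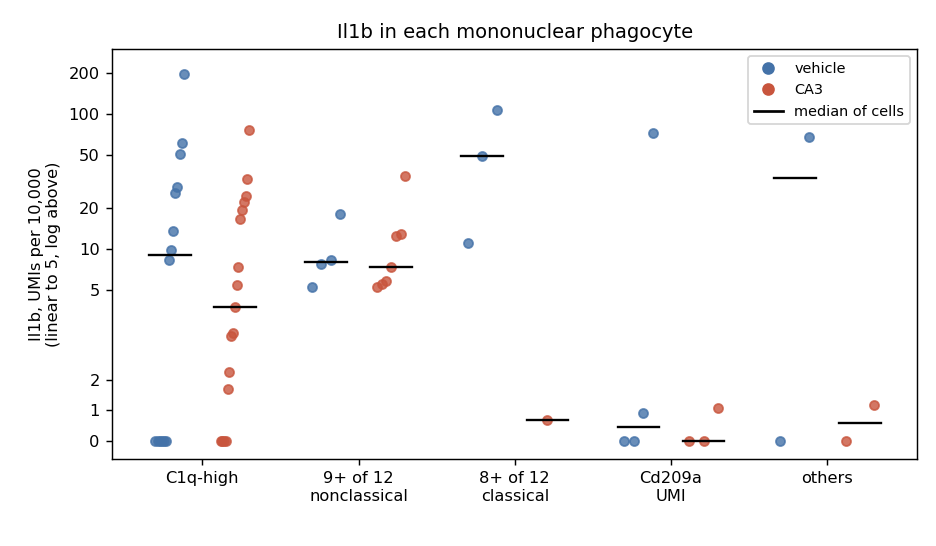
Il1b UMIs per 10000 (y axis, linear to 5 and logarithmic above) in each phagocyte of vehicle and CA3, split into C1q-high cells and the C1q-low subgroups, with a bar at the median of the cells. The C1q-high cells of vehicle reach 198 per 10000, the nonclassical cells of both libraries overlap, and the classical and Cd209a cells of CA3 lie at or near 0.

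Other inflammatory genes did not all go with Il1b. Of 15 measured members of the list, 3 were at least 2 times lower in CA3 (Il1b, Nlrp3 and Osm) and 1 higher (Ccl12), with a median of -0.32. Nlrp3, the sensor of the inflammasome that matures interleukin-1β, had 40 UMIs in 13 vehicle cells and 25 in 5 CA3 cells, at 166 and 80.2 CPM (0.483, 0.281 to 0.817), and the ratio was 0.739 without vehicle cell 24. Osm, the cytokine oncostatin M, had 24 and 11 UMIs (0.354, 0.157 to 0.752). Ccl12 was 2.66 times higher through CA3 cell 5, and its ratio was 0.331 without that cell. Nfkbia, the inhibitor of NF-kB, had 127 and 124 UMIs (0.755, 0.585 to 0.975), and Tnf, the cytokine tumour necrosis factor, had 12 and 12 (0.773, 0.318 to 1.88). Chemokines pointed both ways, with Ccl4 at 1.83, Ccl3 at 1.66 (1.36 to 2.03) and Ccl2 at 0.799 (0.618 to 1.03). Within the classes Ccl2 and Ccl3 went opposite ways. In C1q-high cells Ccl2 was 3.06 times higher in CA3 (2.03 to 4.73) and Ccl3 2.60 times (2.05 to 3.33). In C1q-low cells Ccl2 stood at 0.0817 (0.0379 to 0.157) and Ccl3 at 0.127 (0.0550 to 0.259). CA3 cell 11 held 49 of 127 Ccl2 and 135 of 311 Ccl3 UMIs of CA3. Without it the C1q-high ratios were 1.86 and 1.5, and Ccl3 over all phagocytes stood at 0.962.

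Tnip3 and Tnfaip2, both induced by tumour necrosis factor, were named among the lower genes. Tnip3 had 85 UMIs in 10 vehicle cells and 30 in 8 CA3 cells (0.273, 0.174 to 0.418), with 40 of the 85 in vehicle cell 14. Tnfaip2 had 85 in 14 cells and 31 in 8 (0.282, 0.181 to 0.430), with 47 in vehicle cell 14. Without that cell the ratios were 0.444 for Tnip3 and 0.544 for Tnfaip2. Vehicle cell 14 was the deepest vehicle cell, at 36160 UMIs. Gadd45b, a stress-response gene, had 33 and 11 UMIs in 10 and 8 cells (0.258, 0.118 to 0.523), and the top cell held 9 of the 33. Derl2, of the endoplasmic reticulum's degradation pathway, had 24 UMIs in 14 cells and 7 in 5 (0.226, 0.0821 to 0.540). Sumo3, a small protein modifier, had 24 in 14 cells and 8 in 6 (0.258, 0.100 to 0.593), and Dock4, an activator of Rac, had 36 in 14 cells and 14 in 10 (0.301, 0.150 to 0.571). Rnd3 (28 and 5 UMIs) and Idi1 (25 and 8 UMIs) each had over 50% of their vehicle UMIs in 1 cell, with 19 of 28 in vehicle cell 27 and 15 of 25 in vehicle cell 14. Without these cells the ratios were 0.401 for Rnd3 and 0.533 for Idi1.

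MHC class II did not differ by 2 times between the libraries. None of 10 measured genes did, and the median was -0.05. Cd74 stood at 16260 CPM in vehicle and 15523 in CA3 (0.955, 0.915 to 0.996). H2-Aa had a ratio of 0.908 (0.853 to 0.967), H2-Ab1 0.979 (0.920 to 1.04) and H2-Eb1 1.0 (0.941 to 1.07). These intervals lie well inside 2 times.

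Some genes higher in CA3 were spread over many cells, most of them at low counts. Klf2, a transcription factor that restrains inflammatory gene expression, had 215 UMIs in 22 vehicle cells and 502 in 25 CA3 cells, at 892 and 1611 CPM. The ratio was 1.81 (1.54 to 2.13), just under 2 times, with 2.42 among C1q-high and 1.35 among C1q-low cells. Pou2f2, the octamer factor OCT2, had 55 UMIs in 18 cells and 132 in 27 (1.86, 1.35 to 2.59). No member of the transcription factor list passed 2 times in either direction, and its median was 0.18. Trim30a, an interferon-inducible regulator, had 13 UMIs in 7 cells and 52 in 19 (3.09, 1.66 to 6.19). Tnrc6b, a component of miRNA silencing complexes, had 10 UMIs in 8 cells and 46 in 24 (3.56, 1.77 to 7.91). Thoc7, an mRNA export factor, had 4 in 3 cells and 29 in 12 (5.61, 1.97 to 22). Without the 7 mixed cells these last 3 ratios were 3.08 for Trim30a, 3.73 for Tnrc6b and 5.96 for Thoc7.

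Resident macrophage genes were mostly at like levels in the libraries. Of 16 measured, 1 was at least 2 times higher in CA3 and none lower, with a median of 0.30. The 16 include C1qa, C1qb and C1qc, which are part of the rule that chose the cells. Cd72, a lectin receptor, was that gene, with 29 UMIs in 10 cells and 89 in 17 (2.37, 1.55 to 3.74), 40 of the 89 in CA3 cell 7, and 1.36 without that cell. Cx3cr1 had 60 and 124 UMIs (1.60, 1.17 to 2.21), at 265 and 600 CPM in C1q-high cells and 229 and 145 in C1q-low cells. Cx3cr1 was thus higher in CA3 among C1q-high cells (2.26, 1.54 to 3.41) and not among C1q-low cells (0.633, 0.332 to 1.20). Apoe had a ratio of 1.08. Axl, a receptor for dying cells, had 51 and 68 UMIs (1.03, 0.707 to 1.51), and none of 18 measured efferocytosis and lysosome genes passed 2 times.

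Genes of the reparative list were higher in CA3 in part, mainly through single cells. Of 13 measured, 4 were at least 2 times higher and 1 lower, with a median of 0.47. Spp1, osteopontin, had 55 UMIs in 13 cells and 897 in 22, at 228 and 2879 CPM (12.6, 9.6 to 16.9). CA3 cell 13 held 707 of the 897, and the ratio was 1.95 without the 3 highest cells of each library and 0.718 among C1q-low cells. Retnla, a product of alternatively activated macrophages, had 0 and 193 UMIs, 166 of them in CA3 cell 8. Stab1 had 12 UMIs in 10 cells and 39 in 11 (2.51, 1.29 to 5.27), and 1.77 without CA3 cell 15. Igf1 had 10 in 5 cells and 34 in 4 (2.63, 1.27 to 5.97), 27 of the 34 in CA3 cell 13, and 0.621 without that cell. Mrc1, the mannose receptor, had 46 UMIs in 13 cells and 100 in 15 (1.68, 1.17 to 2.44). The lower gene was Gpnmb, with 39 UMIs in 2 vehicle cells and 13 in 1 CA3 cell, at 0.258, and 0.853 without vehicle cell 10. Wfdc17, a small secreted protein of activated macrophages, had 127 and 454 UMIs (2.76, 2.27 to 3.39), 277 of them in CA3 cell 13. The Wfdc17 ratio was 1.24 without that cell and 0.990 among C1q-low cells.

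None of 10 measured haem and iron genes passed 2 times, and their median was -0.02. Hmox1, which breaks down haem, had 23 UMIs in 10 cells and 22 in 11 (0.740, 0.393 to 1.39). Cd163, the receptor for haemoglobin bound to haptoglobin, had 1 and 1 UMIs, and Arg1, arginase, 0 and 1. Fth1 had 2818 and 2510 UMIs (0.689, 0.653 to 0.727) and 0.865 without the 3 highest cells. Lgals3, galectin-3, had 606 and 409 (0.522, 0.459 to 0.593) and 0.760 without them, with 252 of the 606 in vehicle cell 14.

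The pathway that CA3 is known to inhibit was barely measured in these cells. Yap1, the transcriptional coactivator, had 2 UMIs in vehicle and 3 in CA3, and its paralogue Wwtr1, which encodes TAZ, 1 and 1. Of 22 YAP/TAZ targets, 5 were measured and 1 of them was at least 2 times lower in CA3, Gadd45b, given above. None was higher, and the median was -0.64. Of 16 Hippo components 4 were measured and none passed 2 times. Mki67, a marker of dividing cells, had 1 and 5 UMIs, and 2 of 18 cell cycle genes were measured. For most members of these lists a difference was not detectable at this depth.

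Monocyte markers gave no shift past 2 times in most members. Among classical markers 1 of 9 measured was lower, Ms4a4c, with 59 and 37 UMIs (0.485, and 0.646 without vehicle cell 19), and 21.7% of its 3′ end is shared with related genes. Among nonclassical markers 1 of 10 was higher, Clec4a1, a lectin receptor, with 22 UMIs in 10 cells and 58 in 18 (2.04, 1.23 to 3.50, and 1.78 without CA3 cell 5). Plac8 had a ratio of 0.914 (0.747 to 1.12), Ccr2 1.11 (0.886 to 1.39) and Nr4a1 0.940 (0.747 to 1.19).

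The remaining lists held 1 gene or none past 2 times between the libraries. The 10 measured complement genes include the C1q genes of the rule. Of these 10, Cd93 was lower in CA3, with 25 UMIs in 9 cells and 16 in 7 (0.495, 0.247 to 0.964, and 0.586 without vehicle cell 12). Of 11 interferon response genes, Ifit2, an antiviral effector, was higher, with 4 UMIs in 3 cells and 27 in 2 (5.22, 1.82 to 20.5), with 26 of the 27 in CA3 cell 5. Of 12 lipid handling genes, Fabp4, a fatty acid carrier also found in endothelium, was lower with 40 and 6 UMIs, 22 of the 40 in vehicle cell 12, the cell with endothelial markers. Without the 7 mixed cells Fabp4 had 18 and 6 UMIs (0.284, 0.0923 to 0.747). None of the 20 immediate early genes passed 2 times, with a median of -0.16.

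Some genes named by size that mark tubule segments or endothelium stood on other values without the mixed cells. Umod had 61 and 688 UMIs (8.72, 6.71 to 11.5) and 36 and 20 without them, a ratio of 0.473 (0.260 to 0.840). That turn rested on 1 cell. Vehicle cell 11 held 30 of the 36 UMIs, and its thick ascending limb list, at 48.8 per 10000, lay just under the limit of 50. Without this cell too Umod had 6 and 20 UMIs and was 2.74 times higher in CA3 (1.06 to 8.33). Klk1, the protease kallikrein of the distal tubule, went from 3.92 to 0.802 and Wfdc2 from 3.87 to 1.14. Ly6a, a surface antigen of endothelium among other cells, went from 2.68 to 0.852, and S100a1, a calcium-binding protein, from 2.99 to 1.83. Genes on the lower side stayed past 2 times, with few UMIs left. Hao2, a peroxisomal oxidase of the proximal tubule, had 31 and 2 UMIs, and 7 and 0 without those cells, at least 2.74-fold lower against the floor of 3 UMIs. Akr1c21, a steroid dehydrogenase, had 39 and 6 UMIs, 22 of the 39 in vehicle cell 16, and 7 and 3 without the mixed cells (0.365, 0.0609 to 1.60). Of the thick ascending limb list 3 of 4 measured genes were at least 2 times higher in CA3, with a median of 2.73, and CA3 cells 16 and 17 were the cells in which this list was highest.

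**Figure D5:**
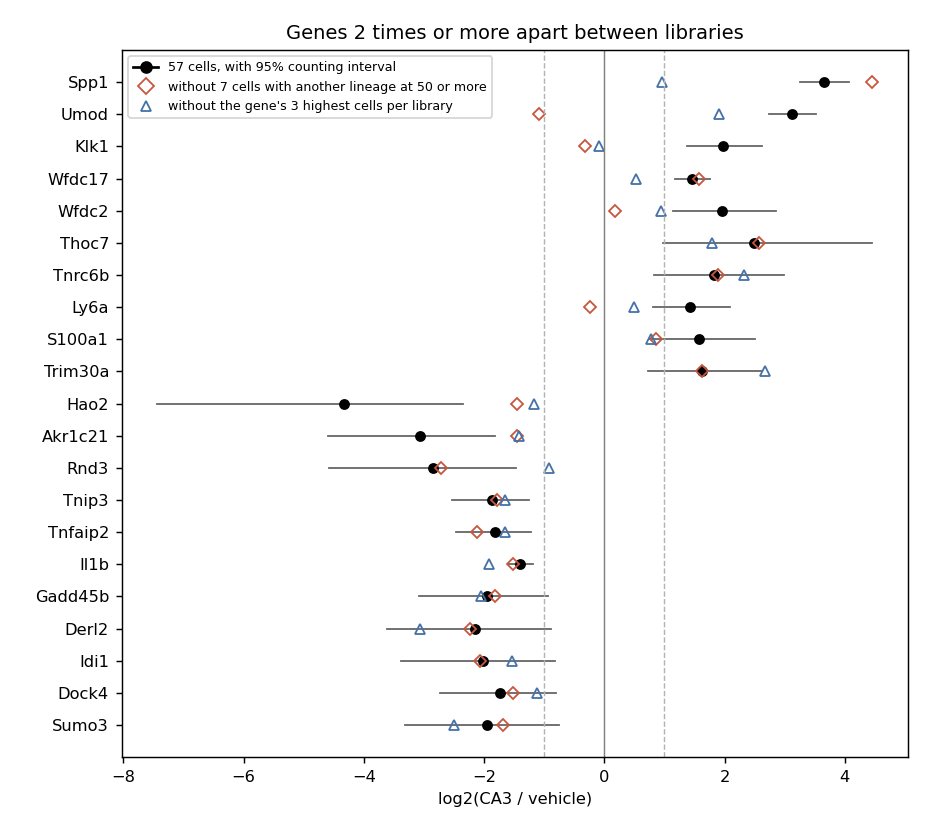
Log2 ratio of CA3 over vehicle (x axis) for the named genes over all 57 phagocytes (circles, with 95% intervals for counting error), without the 7 mixed cells (diamonds) and without each gene's 3 highest cells per library (triangles). Il1b, Tnip3, Tnfaip2 and Gadd45b stay on the lower side, Tnrc6b, Trim30a and Thoc7 on the higher side, and Umod, Klk1 and Ly6a cross 0 without the mixed cells.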

How the data were processed

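Single cells of whole kidney were captured with 10x Genomics 3′ chemistry and sequenced on a NextSeq500, per the labels' protocols. The authors deposited raw UMI counts for each of 31058 features and each barcode, made with Cell Ranger 3.0.1 on mm10, per the submitters' processing notes. Nothing states whether doublets or free RNA were removed.

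The matrices were read with Python 3.11.15, NumPy 2.4.6 and SciPy 1.17.1, and cells were kept and chosen as given above. The cells, the gene lists and the comparisons were chosen with earlier results of these data known. The limit of 50 per 10000 on other lineages and the C1q-low subgroups were chosen after the values were seen. Counts were summed per library and class. Ratios carry exact conditional binomial 95% intervals, shares carry Clopper-Pearson intervals, and a count of 0 was set to 3 UMIs over the class. Up to 12 genes per direction were named among those past 2 times and detected in 20% of cells of the higher group, ranked by the interval bound nearest 1, with up to 4 further members of each list. A few genes that met this rule are not reported here. Genes of the rule were left out of the C1q counts. Cells were thinned to 2000 UMIs where shares with a UMI were compared, except for the reporter MbmCerulean. Scrublet (scanpy 1.11.5) marked 1 vehicle and 3 CA3 kept cells and none of the 57, so doublets were not removed. The scripts were tested on simulated data, 17 other settings were tried, each named ratio was recomputed without the cell richest in the gene (chosen after the values were seen), and figures were drawn with matplotlib 3.10.9.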

Additional observations from a re-analysis of the deposited data

Results flagged for a closer look

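A signal outside the compared genes was seen in MbmCerulean, a reporter sequence among the features of the deposited matrices. It had 4 UMIs in 4 of 30 CA3 phagocytes and 3 UMIs in 2 of 27 vehicle phagocytes. Proximal tubule cells held 499 UMIs in 223 of 1358 vehicle cells and 746 in 286 of 1104 CA3 cells. By raw counts the share of phagocytes with such a UMI was below that of proximal tubule cells in both libraries. The cells were not thinned here, and 2 and 4 phagocytes with a UMI are too few to compare these shares. Whether free RNA gave these UMIs was not tested.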

How the results depend on the processing

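No paired analysis was possible because each group is 1 library. The phagocyte and C1q-high shares moved by less than their intervals under every setting tried. The counts of genes past 2 times (higher in CA3, lower in CA3, higher in C1q-high, lower in C1q-high) were 15, 14, 40 and 55 with cells thinned to 2000 UMIs, 13, 7, 52 and 59 with a minimum of 100 UMIs, and 650, 452, 309 and 373 with a minimum of 10. Fewer UMIs or genes enter the first 2 settings by construction. Without the 3 highest cells of each gene they were 254, 125, 132 and 222, so which comparison held more genes past 2 times depends on these choices, and among C1q-low cells alone 46 were higher and 52 lower in CA3. The cause was not tested. Without the 7 mixed cells they were 87, 81, 156 and 198. Turns of direction are listed here for named genes past 2 times with all cells, and for Cx3cr1, which was under 2 times. Other named genes under 2 times, such as Ccl2 and Ccl3, also changed direction in some settings and are not listed. For CA3 over vehicle, log2 ratios turned without the mixed cells for Klk1 (-0.32), Ly6a (-0.23) and Umod (-1.08, resting on vehicle cell 11, without which the ratio was 2.74), without the 3 highest cells for Ccl12 (-2.13) and Klk1 (-0.10), among C1q-low cells for Cx3cr1 (-0.66), Klk1 (-0.59), Spp1 (-0.48) and Wfdc17 (-0.014), and among C1q-high cells for Ms4a4c (1.39). For C1q-high over C1q-low, they turned for Ccr2 in thinned CA3 cells (0.13), for Fabp5 (-0.21), Mmp12 (-6.31) and Tnfaip2 (-1.68) in vehicle with the C1q limit at 20, for Wfdc2 in CA3 without the mixed cells (-0.21), and for Ly6a in vehicle with cells of 1000 or more genes and 25% or less mitochondrial UMIs (-0.82), with Slc34a1 plus Lrp2 under 5 (-0.62), without endothelial or B cell genes (-0.82) and without the mixed cells (-0.62). After the values were seen, each ratio was also computed without the group's cell richest in the gene. Among genes past 2 times, this turned the log2 ratio of CA3 over vehicle for Ccl12 (-1.60), Ifit2 (-2.33) and Igf1 (-0.69). The same step turned that of C1q-high over C1q-low in vehicle for Ly6a (-0.82). Il1b stayed lower in CA3 under every setting run, with log2 ratios from -2.23 to -0.87. The C1q-low subgroups were not among these settings, and in the nonclassical cells the summed Il1b level was not lower in CA3. With 27 and 30 cells, genes of few UMIs and shares of subgroups have wide intervals, and 1 deep cell per library (vehicle cell 14, CA3 cell 13) holds much of some genes.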
